A study of Mus musculus with 6 samples.

Results

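C1s1 and C1ra encode the mouse forms of complement C1s and C1r, the serine proteases of the first component of the classical complement pathway. All probes annotated with either symbol were taken, which gave 3 of the 8734 probes in the deposited table, 1 for C1s1 (probe 676176) and 2 for C1ra (probes 617816 and 720566). The genes are 2 of the 5644 single genes among the 6807 tested items, an item being either a gene or a probe without a single gene symbol. The pair was selected on its measured transgenic ratios, so those ratios are given as a description without a test. Only the differences between dye orientations and between array sets, which played no part in the choice, were tested.

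The study cultured airway smooth muscle cells from mouse tracheal explants and competed RNA of transgenic and nontransgenic cells on 2-colour arrays. The transgenic mice (TG+ in the titles, 2AR-OE in the source names) overexpress the beta2-adrenergic receptor, and their counterparts are labelled NTG. Both kinds of culture were started in medium with 20% FCS and RNA was taken at passages 8 to 10. The labels state that most of the cells stained for smooth muscle actin, and they give neither the promoter of the transgene nor the age or strain of the mice. The dyes were swapped between arrays: on 1A, 1B, 2A and 2B the transgenic RNA had the Cy5 label and on 1C and 2C the Cy3 label. Arrays that share the number 1 or 2 are called a set, since the labels do not say what numbers and letters mean. No label says that the arrays came from separate cultures or animals, so every p-value rests on array-to-array spread that may be technical only.

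All values are log2 ratios as deposited, and their direction is likely transgenic over nontransgenic. The basis is that channel 1 of the 4 arrays in the commoner orientation holds the transgenic RNA, while the titles of these arrays name NTG before TG+. If the ratio runs the other way, every sign turns. Arrays 1C and 2C were taken as already brought to the same direction as the others, which no label states. If they were not, the transgenic and the dye terms exchange their values, and C1s1 would have a transgenic term of 0.73 and C1ra of 0.38. Between 8495 and 8555 probes had a value on each array. Array 1C had the widest ratios, with a standard deviation of 1.04 over probes, against 0.467 to 0.608 on the other 5 arrays. Ratios give no level, so the labelled cell type could not be checked against the level of its markers.

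In the classical pathway, C1q binds antibody complexes or altered surfaces, the attached C1r then activates itself and cleaves C1s, and C1s cleaves C4 and C2 to build the C3 convertase. C1 inhibitor, encoded by Serping1, blocks both proteases. Liver is the main source of many plasma complement proteins, and fibroblasts and other mesenchymal cells also secrete C1r and C1s. The mouse has tandem copies of both genes, C1ra with C1rb and C1s1 with C1s2, and the related C1rl.

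In the RefSeq gene order, C1rl, C1ra, C1s1, the pseudogene Gm18840, C1rb, C1s2 and Lpcat3 follow each other on chromosome 6. C1ra lies on the plus strand and the next gene, C1s1, on the minus strand, so the neighbours are transcribed towards each other from separate start sites. The promoter windows of both genes and of the C1ra copy C1rb are shown because the members had high ratios together and C1rb is a near-copy. Each window runs from 250 bases before to 50 bases after an annotated start, 5′ to 3′ on the strand of the gene, from the RefSeq table of build GRCm38.p6. Capitals mark matches to the 7 motifs searched. The windows are chr6:124512371-124512670 on the plus strand for C1ra, chr6:124542310-124542609 on the minus strand for C1s1 and chr6:124570180-124570479 on the plus strand for C1rb.
C1s1: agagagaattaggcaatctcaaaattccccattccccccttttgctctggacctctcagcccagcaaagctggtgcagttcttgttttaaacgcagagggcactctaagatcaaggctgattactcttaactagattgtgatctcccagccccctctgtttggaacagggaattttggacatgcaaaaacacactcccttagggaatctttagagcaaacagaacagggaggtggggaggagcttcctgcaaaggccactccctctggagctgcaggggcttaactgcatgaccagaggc
C1ra: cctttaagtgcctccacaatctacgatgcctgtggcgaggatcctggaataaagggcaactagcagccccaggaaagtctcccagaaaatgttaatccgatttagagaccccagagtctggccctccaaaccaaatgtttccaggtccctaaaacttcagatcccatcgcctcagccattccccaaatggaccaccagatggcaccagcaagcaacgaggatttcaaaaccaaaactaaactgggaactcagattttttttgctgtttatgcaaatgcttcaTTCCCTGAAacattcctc
C1rb: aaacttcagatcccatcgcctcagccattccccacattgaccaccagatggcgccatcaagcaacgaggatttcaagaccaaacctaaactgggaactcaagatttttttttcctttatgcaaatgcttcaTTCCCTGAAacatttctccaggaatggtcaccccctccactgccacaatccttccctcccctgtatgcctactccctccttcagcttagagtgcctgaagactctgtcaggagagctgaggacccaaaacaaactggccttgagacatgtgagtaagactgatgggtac

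The motifs were searched on both strands and compared with all 32851 windows of the table. TTCNNNGAA, the form bound by STAT factors, matched once in the C1ra window, as TTCCCTGAA at bases 32 to 40 from the start. It was found in 8.3% of all windows. The same letters lay 119 bases before the start in the C1rb window, inside a stretch where 139 of 150 aligned columns were identical between C1ra and C1rb (92.7%). No other searched motif matched in the windows of C1s1, C1ra or C1rb, nor in the window of a second annotated C1s1 start nearby. The other motifs were TGACGTCA, the full cyclic AMP response element (1.79% of all windows), its shorter form TGACG (20.8%, and contained in the full element), GAAANNGAA (8.56%), TATAAA (13.6%), CCAAT (37.4%) and GGGCGG (35.7%). A match describes letters and not a binding site, and the absence of a match says only that these letters are not in the window. The probe sequences were not analysed here, and whether the C1s1 and C1ra probes also bind C1s2 or C1rb transcripts was not tested.

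Both proteases had higher ratios in transgenic cells on all 6 arrays and with all 3 probes, at 2.46-fold or more on every array. The C1s1 probe read 6.93 on array 1A, 2.66 on 1B, 2.72 on 2A and 2.72 on 2B with transgenic RNA in Cy5, and 2.49 on 1C and 2.12 on 2C with it in Cy3. The other 5 arrays thus lay within 4.36-fold to 6.59-fold, while array 1A stood apart at 122-fold. The mean was 3.27 ± 1.81 (SD, n = 6), and 2.54 ± 0.25 (SD, n = 5) without 1A, which corresponds to 5.82-fold. In these bulk cultures, a different share of cells of a type and a different amount of RNA per cell cannot be told apart.

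Probe 617816 of C1ra read 4.27 on 1A, 2.56 on 1B, 2.18 on 2A and 2.29 on 2B, and 1.85 on 1C and 1.88 on 2C. Array 1A was again the highest, at 19.2-fold, against 3.61-fold to 5.91-fold on the others. Probe 720566 of C1ra read 2.14 on 1A, 1.73 on 1B, 1.97 on 2A and 1.95 on 2B, and 1.49 on 1C and 1.30 on 2C. Its array 1A value, 4.4-fold, was only 0.16 above the next array, so the excess of 1A in C1ra lay almost wholly in probe 617816. The means were 2.50 ± 0.90 for probe 617816 and 1.76 ± 0.32 for probe 720566 (SD, n = 6 each). Probe 617816 exceeded probe 720566 on every array, by 2.13 on 1A and by 0.20 to 0.83 on the other 5. These are ratios of the same transcript by symbol, and which of the probes lies closer to the true change was not tested.

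**Figure D1:**
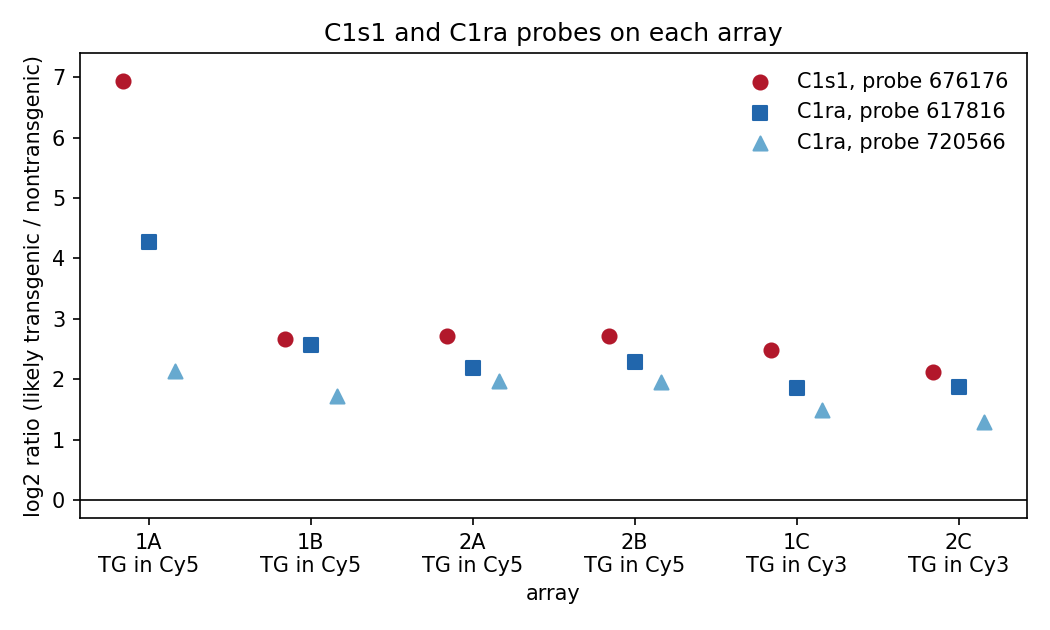
Log2 ratio (y axis, likely transgenic over nontransgenic) of the C1s1 probe and the 2 C1ra probes on each of the 6 arrays (x axis, with the dye of the transgenic RNA); each point is 1 probe on 1 array. All 18 points lie above 0, and C1s1 at 6.93 and C1ra probe 617816 at 4.27 on array 1A stand above the other arrays.

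With the C1ra probes averaged, C1ra read 3.20 on 1A, 2.15 on 1B, 2.08 on 2A and 2.12 on 2B, and 1.67 on 1C and 1.59 on 2C. In the fit with a dye term over the 6 arrays, C1s1 had a ratio of 3.03 ± 0.65 (SE), which is 8.17-fold, and C1ra one of 2.01 ± 0.18, which is 4.02-fold. Without array 1A these became 2.50 ± 0.08 for C1s1 and 1.87 ± 0.07 for C1ra, or 5.66-fold and 3.66-fold. Array 1A thus moved the C1s1 estimate more than that of C1ra, and both standard errors were smaller without it. Within set 2 alone the fitted ratios were 2.42 for C1s1 and 1.84 for C1ra, and within set 1 alone, which holds 1A, they were 3.64 and 2.17. Over all items, 484 of 6807 passed limma's threshold for this contrast (7.11%), 274 with a higher ratio in transgenic cells (4.03%) and 210 with a lower one (3.09%). The members were chosen on this contrast, so their place in it is a description. Among the 5644 single genes, C1s1 had the highest fitted ratio and C1ra was 6th. Thy1, a surface glycoprotein of fibroblasts and T cells, was next after C1s1 at 2.73 ± 0.21. That order rests on array 1A, since without it Thy1 was at 2.72 and C1s1 at 2.50. C1ra stood between Ly6c1, a surface antigen, at 2.07 ± 0.22 and Cst3, the protease inhibitor cystatin C, at 1.71 ± 0.20.

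The place of the probes among all probes of an array differed between arrays. The C1s1 probe ranked 1st on 1A, 6th on 1B and 2nd on both 2A and 2B, and 215th on 1C and 24th on 2C. Probe 617816 of C1ra ranked 3rd, 7th, 7th and 3rd on 1A, 1B, 2A and 2B, and 427th on 1C and 34th on 2C. Probe 720566 ranked 44th, 27th, 10th and 8th on the same 4 arrays, and 594th on 1C and 91st on 2C. The low places on 1C went with the spread of that array, where the 99th percentile of all probes stood at 3.25, against 1.01 to 1.61 on the other arrays. On the other 5 arrays all of the members' values except one of probe 720566 on 2C lay above that percentile.

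**Figure D2:**
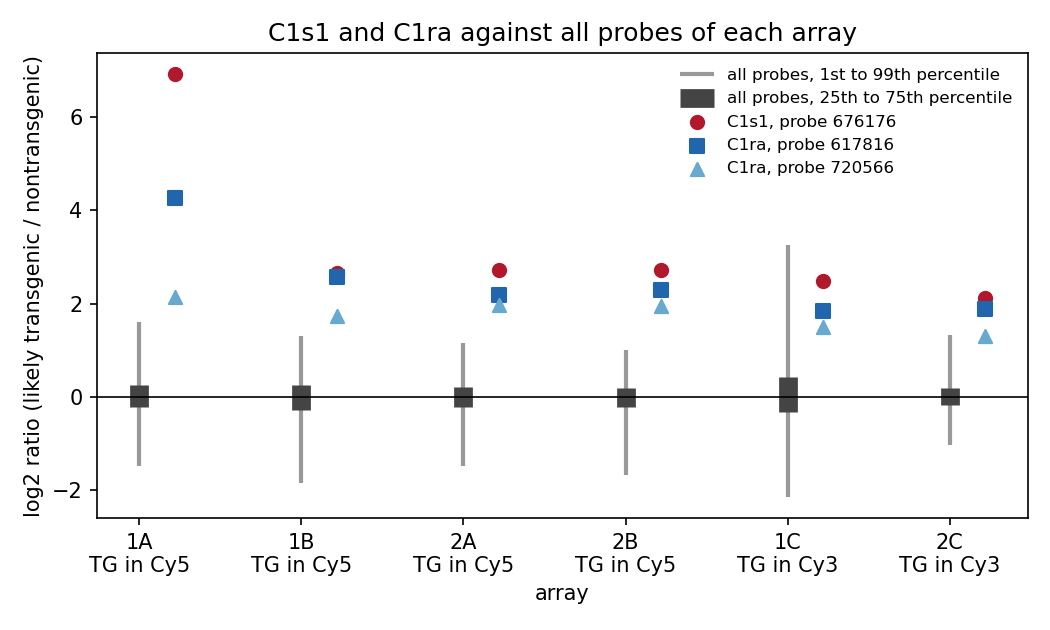
Log2 ratio (y axis) of the 3 probes on each array (x axis), beside all probes of the array; thin bars run from the 1st to the 99th percentile and thick bars span the middle quartiles. The members lie above the thin bar on most arrays and inside it on 1C, where it reaches 3.25.

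The excess of array 1A was then set beside that of other probes with high ratios. Of 8430 probes with a value on all arrays, 17 exceeded 2-fold on every array, the 3 members among them. Array 1A exceeded the highest other array by 4.21 for C1s1, which was the largest such excess of all 8430 probes, by 1.70 for probe 617816 (23rd) and by 0.16 for probe 720566 (422nd). Among the 14 other probes beyond 2-fold on every array, 1A was the highest array for 8 and its excess was at most 0.86. Those 14 include probes of Thy1, Cpxm1, Ly6c1, Fhl1, Tnc and Dkk3. By the lowest of its 6 values the C1s1 probe ranked 2nd of 8430, probe 617816 3rd and probe 720566 7th. By the median they ranked 1st, 4th and 8th. These ranks come from the ratios that chose the genes and are a description.

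Next, the agreement of the 2 genes was described array by array. C1s1 exceeded C1ra by 3.73 on 1A, 0.51 on 1B, 0.64 on 2A, 0.60 on 2B, 0.82 on 1C and 0.53 on 2C. The difference had the same sign on all 6 arrays, and without 1A it averaged 0.62 ± 0.12 (SD, n = 5). Single probes differ in how fully they report a change, and whether the transcripts themselves changed by different amounts was not tested. C1s1 exceeded probe 720566 by 0.74 to 1.00 on the 5 arrays other than 1A, and probe 617816 by 0.10 to 0.64. Over the 6 arrays, C1s1 and the C1ra mean had Pearson's r = 0.948 and Spearman's rho = 0.83, given as a description because the arrays may share RNA sources and both genes share each array's processing. Without 1A, r was 0.894 and rho 0.7 over 5 arrays, and without 1A and 2C, r was 0.933 and rho 0.4 over 4. Those arrays differ in dye orientation, and both genes were lower on 1C and 2C, with transgenic RNA in Cy3. On 1B, 2A and 2B, C1s1 read 2.66, 2.72 and 2.72 and C1ra 2.15, 2.08 and 2.12, so C1ra was highest where C1s1 was lowest. The part of dye orientation in these correlations was not tested. The closer C1ra probe by r changed with 1A: with it, r was 0.974 for 617816 and 0.667 for 720566, and without it 0.698 and 0.933. The 2 probes of C1ra themselves correlated with r = 0.71 with 1A and 0.659 without it.

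The ratios were then compared between dye orientations, a contrast not used in the choice. For each of the 3 probes, all 4 arrays with transgenic RNA in Cy5 lay above both arrays with it in Cy3, with gaps of 0.17 for C1s1, 0.30 for probe 617816 and 0.25 for probe 720566. The same order held for 1501 of 8430 probes (17.8%). Among the 14 other probes beyond 2-fold on every array it held for 1. Means were 3.76 with transgenic RNA in Cy5 and 2.30 with it in Cy3 for the C1s1 probe, and without 1A the gap between the orientation means was 0.39 for C1s1, 0.48 for probe 617816 and 0.49 for probe 720566. The fitted dye term, by limma with Benjamini-Hochberg adjustment over all items, was 0.73 ± 0.65 in C1s1, with an adjusted p of 0.555, and 0.38 ± 0.18 in C1ra, with an adjusted p of 0.307. Neither passed the threshold, nor did any of the 3 probes tested singly, with adjusted p of 0.559, 0.414 and 0.203 for C1s1, 617816 and 720566. The dye term of probe 720566 was 0.28 ± 0.08, with an unadjusted p of 0.0133 in limma. In all, 1 of 6807 items passed for the dye term (0.0147%), and 1242 had an unadjusted p under 0.05. Without array 1A the terms were 0.20 ± 0.08 for C1s1 and 0.24 ± 0.07 for C1ra. Limma's adjusted p was 0.373 and 0.268 in that fit, and its unadjusted p 0.0654 and 0.0147. Over all probes, Pearson's r was 0.313 to 0.697 between arrays of the same orientation and 0.009 to 0.179 between arrays of opposite orientation.

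Between the sets, C1s1 was lower in set 2 than in set 1 by the fitted difference of -1.51 ± 1.21, and C1ra by -0.41 ± 0.31, and neither passed limma's threshold (adjusted p = 0.492 and 0.469). Array 1A weighed on both differences, and without it they were -0.12 ± 0.14 for C1s1 and -0.06 ± 0.09 for C1ra (limma's adjusted p = 0.643 and 0.707). Scaling the arrays to equal spread turned the C1ra difference to 0.23. By limma, 0 of 6807 items passed for the set difference (0%), and 1616 had an unadjusted p under 0.05.

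The other measured complement genes all had lower fitted ratios than C1s1 and C1ra. The pair was chosen on these ratios and ranked 1st and 6th of 5644 single genes, so this order largely follows from the choice. Beside the members, 17 of 60 listed complement genes were tested, and 1 rose, 0 fell and 16 did not pass limma's threshold. The share of 5.88% higher stood near the 4.03% of all items, and the median fitted ratio was -0.16, against 0.002 over all items. The list was compiled with earlier results of these data known.

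In the classical pathway, C1qc encodes a chain of C1q, the recognition subunit to which both proteases bind. It read -0.22 on 1A, -0.32 on 1B, -0.23 on 2A and -0.15 on 2B, and 0.27 on 1C and -0.07 on 2C, with a fitted ratio of -0.07 ± 0.07 (limma's adjusted p = 0.576). Its values lay around 0, below those of both proteases on every array. C2, a substrate of C1s, read 0.24, -0.19, 0.08 and 0.31 on 1A, 1B, 2A and 2B, and 3.22 on 1C and -0.02 on 2C. Array 1C alone stood high, and the fitted 0.86 ± 0.41 did not pass (adjusted p = 0.236 in limma). C1rb, C1s2 and C1rl had no probe of their own on the array. Ratios of C1qa, C1qb, C4b, C3 and Serping1 were not analysed here.

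Masp1 and Masp2 encode the lectin pathway proteases that share the domain order of C1r and C1s, and Mbl1 a mannose-binding lectin that carries them. Masp1 read -0.66 on 1A, -0.73 on 1B, 0.17 on 2A and 0.31 on 2B, and -1.38 on 1C and -0.92 on 2C. Its set 1 arrays were all below 0 while those of set 2 were on both sides, and the fitted ratio was -0.69 ± 0.18 (limma's adjusted p = 0.0803). Masp2 stood at -0.26 ± 0.09 and Mbl1 at -0.74 ± 0.16, with limma's adjusted p of 0.124 and 0.0545. The Masp2 value averaged 2 unlike probes, 680104 at -0.48 ± 0.16 and 680232 at -0.03 ± 0.08. Mbl1 was below 0 on all 6 arrays, from -1.44 on 1C to -0.22 on 2A. Fcnb, a ficolin, stood at 0.22 ± 0.16 (adjusted p = 0.394). None of the 4 lectin pathway genes passed the threshold.

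Cfb, the alternative pathway protease factor B, read 0.59, -0.08, 0.57 and 0.68 on 1A, 1B, 2A and 2B, and 0.75 on 1C and 0.41 on 2C. It was above 0 on every array except 1B, at 0.51 ± 0.13 (limma's adjusted p = 0.0709). Of the terminal components, Hc, which encodes C5, stood at -0.26 ± 0.10 and C6 at -0.22 ± 0.08, and of the membrane regulators, Cd55 stood at -0.16 ± 0.11 and Cd59a at -0.20 ± 0.14. None of these passed, with limma's adjusted p between 0.139 and 0.366.

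Of the receptors, C3ar1, the receptor for C3a, was the complement gene beside the members that rose. It read -0.12 on 1A, -0.15 on 1B, 0.31 on 2A and 0.22 on 2B, and 1.38 on 1C and 1.08 on 2C. The arrays with transgenic RNA in Cy3 were the high ones, the reverse of the order in C1s1 and C1ra. The fitted ratio of 0.65 ± 0.10 (limma's adjusted p = 0.0182) lost its call without the dye term, at 0.45 and an adjusted p of 0.264. It also lost it without array 1C, 2A or 2B, at limma's adjusted p of 0.0845, 0.0573 and 0.0665, with the set as a random block (0.0657) and with array weights (0.0546). The integrin chains of complement receptors Itgam, Itgax and Itgb2 stood at -0.17, -0.01 and 0.03, Vsig4, a macrophage receptor for C3 fragments, at 0.14, and Calr, calreticulin, which binds C1q, at -0.19 ± 0.06, and none of them passed.

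**Figure D3:**
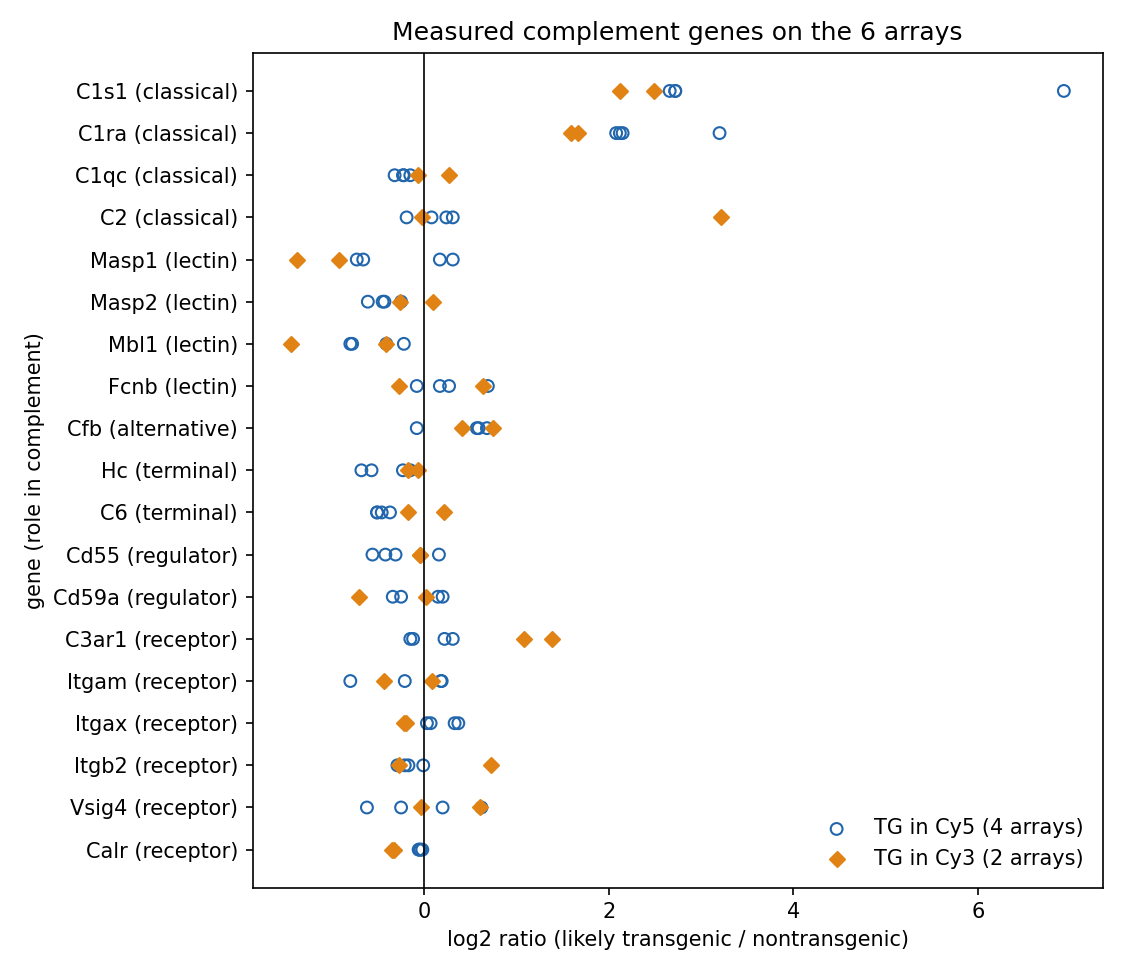
Log2 ratio (x axis, likely transgenic over nontransgenic) of each measured complement gene (y axis, with its role) on 4 arrays whose transgenic RNA carried Cy5 (open circles) and 2 where it carried Cy3 (filled diamonds). C1s1 and C1ra lie above 1.5 on every array, while the other genes lie mostly between -1 and 1.

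C1r and C1s carry CUB domains, a fold found in many secreted and membrane proteins. Of 16 other CUB domain genes tested, 1 rose (6.25%, against 4.03% of all items) and 4 fell (25%, against 3.09%), with a median of -0.16. The gene that rose was Pamr1, which encodes a peptidase domain protein linked to muscle regeneration, at 2.39, 2.85, 1.97 and 1.70 on 1A, 1B, 2A and 2B, and 0.91 on 1C and 1.19 on 2C. Like the members, it had lower values on both arrays with transgenic RNA in Cy3, and its fitted ratio was 1.64 ± 0.17 (limma's adjusted p = 0.0072). Those that fell were Pdgfc, a platelet-derived growth factor (-1.42 ± 0.10), Nrp2, a semaphorin and VEGF receptor (-1.13 ± 0.14), Bmp1, a procollagen protease (-0.56 ± 0.07), and Dcbld2, a membrane receptor (-0.39 ± 0.07). Their adjusted p-values in limma ran from 0.00411 for Pdgfc to 0.0318 for Dcbld2. None of the 11 coagulation and fibrinolysis genes, 4 secreted trypsin-like proteases or 4 serpins tested passed in either direction. Over all items the share that passed in either direction was 7.11%. Serpinc1, Serpind1 and Serpinf2 were counted in both the coagulation and the serpin list. Masp1 and Masp2 were counted among both the complement and the CUB domain genes.

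C1r and C1s are known to respond to interferon and, in the liver, to inflammatory cytokines. Of 10 acute phase and interleukin 6 response genes tested, 1 rose and 0 fell, with a median of 0.11, and the share of 10% higher stands beside 4.03% of all items. It was Osmr, the oncostatin M receptor, with a narrow range of 0.70 to 0.82 over the 6 arrays and a fitted ratio of 0.75 ± 0.06 (limma's adjusted p = 0.00411). Of 16 interferon response genes, 3 rose and 0 fell, with a median of 0.11, a share of 18.8% higher beside 4.03% of all items. They were Ifitm2, an antiviral membrane protein (0.86 ± 0.17), Gbp2, an interferon-induced GTPase (0.73 ± 0.09), and Stat2, which transmits type I interferon signals (0.42 ± 0.09), with adjusted p of 0.0381, 0.0119 and 0.0465 in limma. With the set as a random block, Ifitm2 and Stat2 lost the call (adjusted p = 0.0679 and 0.109) and Gbp2 kept it (0.0478).

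Marker lists of smooth muscle and of other cell types, whether or not the cultures could hold them, were counted in the same fit. Of 7 fibroblast markers 2 rose (28.6%, against 4.03% of all items) and 0 fell, with a median of 0.70. They were Thy1 at 2.73 ± 0.21 and Mfap5, a microfibril protein, at 0.81 ± 0.07 (limma's adjusted p = 0.00411 and 0.0045). The other 5 did not pass. Dpt, dermatopontin, stood at 1.67, Lum, the proteoglycan lumican, at 0.70 and Cd34, a surface sialomucin, at 0.05. Pdgfra, a growth factor receptor, stood at -0.02 and Col1a1, a fibrillar collagen, at -1.21. Single arrays stood apart in Dpt and Col1a1. Dpt read -1.01 on 1B and 1.83 to 2.27 on the others, and Col1a1 -3.28 on 1C and -1.01 to 0.24 on the others. Of 4 smooth muscle markers 1 rose (25%), Cnn1, which encodes calponin (0.59 ± 0.10, limma's adjusted p = 0.028), and the list's median was -0.09. The other 3, all contractile or calcium-handling genes of muscle, did not pass and were below 0, with Smtn at -0.05, Cald1 at -0.12 and Pln at -0.33. Of 6 epithelial markers 1 rose (16.7%), Cdh1, which encodes E-cadherin (0.32 ± 0.06, adjusted p = 0.0333 in limma). Of 5 chondrocyte markers 1 fell (20%, against 3.09% of all items), Col11a1, a cartilage collagen (-1.10 ± 0.09, adjusted p = 0.00411 in limma). None of 9 macrophage and leukocyte, 2 hepatocyte or 7 endothelial markers passed in limma. The macrophage and leukocyte markers C1qc and Itgam were also counted among the complement genes. Fgb, a hepatocyte marker, was also counted in the coagulation and the acute phase lists. The summed level of a marker list cannot be had from ratios, and the part of these cell types in the C1s1 and C1ra ratios was not tested. Cdh1, Cnn1, Dcbld2, Ifitm2 and Stat2 each lost the call when 1A, 1B, 2A, 2B or 1C was left out, with limma's adjusted p of 0.0637 to 0.168, and Gbp2 lost it without 1C (0.0545). With the set as a random block, Cdh1, Cnn1 and Dcbld2 also lost it, at 0.101, 0.0602 and 0.0736.

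The genes nearest to each member were ranked by the root mean square difference of log2 ratios over the 6 arrays, among 5613 genes with all values. Nearest to C1ra was Cpxm1, a secreted carboxypeptidase-like protein, at 0.34, with 3.41 on 1A, 2.55 on 1B, 2.40 on 2A and 1.98 on 2B, and 2.25 on 1C and 1.66 on 2C. Then came Ly6c1 at 0.38, Dkk3, a secreted Dickkopf family member, at 0.53, Mamdc2, a matrix protein, at 0.58 and Pamr1 at 0.59. C1s1 was the 172nd nearest to C1ra, at 1.63. Nearest to C1s1 were Cpxm1 at 1.49, 9030619P08Rik at 1.51, C1ra at 1.63, Mamdc2 at 1.67 and Ly6c1 at 1.73. None of these genes came close to C1s1 on array 1A, the highest being 9030619P08Rik at 3.83. Without 1A the differences were 0.43 for Cpxm1, 0.56 for Thy1, 0.63 for C1ra, 0.68 for Ly6c1 and 0.89 for Rasl11a, a Ras-like GTPase. C1ra was thus the 3rd nearest gene to C1s1 with and without 1A, behind Cpxm1 both times.

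**Figure D4:**
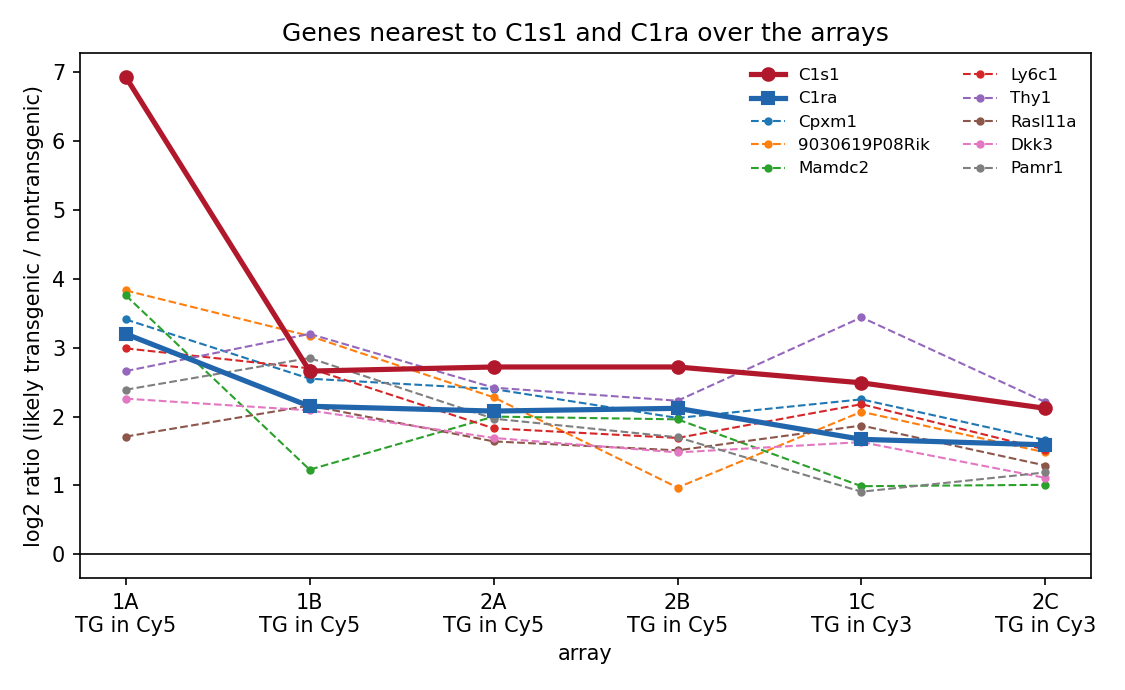
Log2 ratio (y axis, likely transgenic over nontransgenic) of C1s1 and C1ra (thick lines) and of the genes nearest to them (dashed lines) on the 6 arrays (x axis); lines only join the points of 1 gene. C1s1 stands alone at 6.93 on 1A and lies at 2.12 to 2.72 on the remaining arrays, above all the others drawn on 2A and 2B, and C1ra runs beside Cpxm1 and Ly6c1 throughout.

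By Pearson's r over the 6 arrays, the genes most like C1s1 were Prpf8, a core splicing factor (0.988), Tmem204, a membrane protein (0.987), and Polb, DNA polymerase beta (0.986), with C1ra 15th at 0.948. Those most like C1ra were Tango2 (0.996), Myo1e, a class I myosin (0.985), and Klf9, a Krüppel-like transcription factor (0.984), with C1s1 19th. Likeness by r ignores the size of the ratios and follows array 1A, and these are descriptions over 6 points.

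Of the 20 genes that flank the pair in the RefSeq order, 10 on each side, 3 had probes on the array, all on the side of C1s1. Lpcat3, a lysophospholipid acyltransferase and the 4th gene after C1s1, read 0.45 on 1A, 0.40 on 1B, 0.08 on 2A and 0.26 on 2B, and 0.71 on 1C and 0.10 on 2C. All its values were above 0 and far below those of C1s1 and C1ra, and its fitted 0.35 ± 0.11 did not pass limma's threshold (adjusted p = 0.104). With 1 array left out, the fitted ratio of Lpcat3 ranged from 0.20 without 1C to 0.50 without 2C. Phb2, a mitochondrial prohibitin, stood at -0.11 ± 0.07 and Ptpn6, a phosphatase of blood cells, at -0.13 ± 0.07, and neither passed (limma's adjusted p = 0.311 and 0.278).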

How the data were processed

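The authors deposited 1 log2 ratio per probe and array for 6 two-colour arrays; cDNA of both kinds of cell competed on each slide, per the labels' protocols. How the slides were scanned, corrected and normalized, and which way the ratio runs, is not given in the sources used here. A floor at a ratio of 0.01 held 0 to 63 values per array. Intensities were not used, so probes with a weak signal could not be told from the others. The stated precision rests on the spread between arrays and on their number. The platform annotation gave 1 symbol for 7540 of 8734 probes, several for 14 and none for 1180; 7493 matched the GRCm38.p6 gene table. Probes of 1 symbol were averaged, and an item needed values on at least 4 arrays and both orientations. limma 3.58.1 (R 4.3.3; lmFit, eBayes) fitted a transgenic and a dye term, and in a second fit a set term, with Benjamini-Hochberg adjustment over 6807 items and a threshold of 0.05; the code was tested on simulated data. Promoters were aligned with Biopython 1.88, and tables and plots were made in Python 3.11.15 (matplotlib 3.10.9, numpy 2.4.6, pandas 2.3.3). Named were all measured complement genes, genes of other lists that passed, the 5 nearest genes by root mean square difference, the 3 highest by r, measured flanking genes and neighbours in the ranking. The members and lists were chosen with earlier results of these data known. Alternatives changed the probe summary, floor, dye term, set block, swapped sign, array weights, scaling, missing values and arrays used.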

Additional observations from a re-analysis of the deposited data

Results flagged for a closer look

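Among the 4 arrays with transgenic RNA in Cy5, 50 genes were examined for an array far from the others, and chance gives such an array in about 1 in 20 groups. Array 1A stood apart for C1s1, at 6.93 against 2.66 to 2.72 on the other 3, and for C1ra, at 3.20 against 2.08 to 2.15. These are the ratios on which the pair was chosen, so both distances are a description and no test. Array 1B stood apart for Cfb, at -0.08 against 0.57 to 0.68. Array 1A also stood apart for Tmem204 at 2.09 (others 0.13 to 0.32), Polb at 1.57 (-0.36 to -0.07), Tango2 at 0.39 (0.10 to 0.12), Prpf8 at 0.37 (-0.03 to 0.03) and Myo1e at 0.29 (-0.05 to -0.01). These 5 genes were named for their likeness to the profiles of C1s1 and C1ra, in which 1A is the highest array, so their distance follows from that choice. The cause of the high 1A value of C1s1 was not tested.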

How the results depend on the processing

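The fitted ratio of C1s1, 3.03, ranged from 2.50 to 3.21 when 1 array was left out, and that of C1ra, 2.01, from 1.87 to 2.06. With the sign of 1C and 2C turned they became 0.73 and 0.38. The C1ra set difference of -0.41 reversed to 0.23 with arrays scaled to equal spread. For the transgenic term, 484 items passed, against 158 with array weights, 1057 in set 1 alone, 907 in set 2 alone, 197 with a random replicate block for the set (correlation 0.295), 1 with the swapped sign turned and 169 (without 2A) to 1689 (without 2C) with 1 array left out. For the dye term, 1 passed, against 0 with floor values missing, 0 with probes tested singly, 0 in set 1 alone, 304 in set 2 alone, 484 with the sign turned and 1 to 987 with 1 array left out. For the set term, 0 passed, against 528 with array weights, 3 with scaling and 1 with probes singly. Of the complement genes beside C1s1 and C1ra, 1 passed, against 0 with array weights, without the dye term, with the replicate block or with the sign turned, 2 with scaling or in set 2 alone, 5 in set 1 alone and 0 to 5 with 1 array left out. The cause of these shifts was not tested; fits within a set or without an array use fewer arrays.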
